A study of Mus musculus with 12 samples.

Results

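The Spi1 locus was taken as every peak that overlaps chromosome 2 from 90905000 to 90970000 in mouse build mm9. This window of 65.0 kb was set around Spi1, also called Sfpi1, and its upstream regulatory element. It held 60 peaks of the 353812 in the 11 peak lists. All samples came from C57BL/6 mouse embryos at embryonic day 14.5, with no genetic change or treatment named. Whole fetal liver was profiled by ChIP-seq for H3K4me1 (3 libraries), H3K4me2 (2), H3K4me3 (2) and H3K27ac (2), with 1 input DNA library that was not analysed here. Proerythroblasts, early red cell precursors, were profiled by ATAC-seq, which maps open chromatin (2 libraries).

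Spi1 encodes PU.1, an ETS-family transcription factor needed in the mouse for macrophages, neutrophils and B cells. In erythroid cells PU.1 and GATA1 oppose each other, and PU.1 normally declines as red cell precursors mature. The gene was found as an integration site of a Friend virus component in mouse erythroleukaemia. Its transcription depends on a promoter and on a distal upstream regulatory element (URE). H3K4me3 marks active promoters, H3K4me1 marks enhancers and promoter flanks, H3K4me2 marks both, and H3K27ac marks active promoters and enhancers. Whole fetal liver at this stage is mostly erythroid, with hepatoblasts, macrophages and other blood cells, so a mark may come from any of them. In such a mixture, fewer cells with a mark and less mark per cell cannot be told apart.

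No mm9 gene annotation was used, so regions are given by position and none is placed on an exon, an intron or a start site. The RefSeq table for another build (GRCm38) orders the neighbouring genes, from low to high coordinate, as Psmc3, Slc39a13, Gm39874, Spi1, Mybpc3 and Madd. Slc39a13 encodes a zinc transporter, Gm39874 is listed as a long noncoding RNA, and Mybpc3 encodes a cardiac myosin-binding protein. The window held 2 H3K4me3 regions seen in both libraries, called here the left and the central one. If these follow that gene order, the left one lies at the start of Slc39a13 or Gm39874 and the central one at Spi1, which is read towards higher coordinates. The lists themselves do not settle that assignment.

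Each peak carries the authors' fold enrichment over the peak caller's background. These folds come from different antibodies and from libraries of unknown depth, so each was read as a percentile among the peaks of its own list. The lists hold 14031 to 52387 peaks per library and no read counts, so shallow sequencing and few marked sites cannot be told apart in a short list. For H3K4me2 the sample labels and the protocol name antibodies of different suppliers, and for H3K4me3 and H3K27ac they give different catalogue numbers of 1 supplier. Values of these marks rest on whichever antibody was used. A consensus region is a joined stretch with a peak of every library of its mark.

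Peaks of all 11 libraries met in the window, as they did in 16.7% of the 39503 stretches of equal length that tile the genome. Such stretches numbered 6614, beside 9198 stretches that hold a consensus H3K4me3 region. Joining the histone peaks of all libraries gave 9 segments between 90908720 and 90955744. Before them lay 3.72 kb without any peak. After them, no list had a peak until 91003504, a stretch of 47.8 kb of which the first 14.3 kb lies inside the window. The nearest peaks outside the low end lay 2.37 to 3.69 kb from it in the lists of H3K4me1, H3K4me2, H3K27ac and ATAC, and at least 9.41 kb from it in those of H3K4me3.

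**Figure D1:**
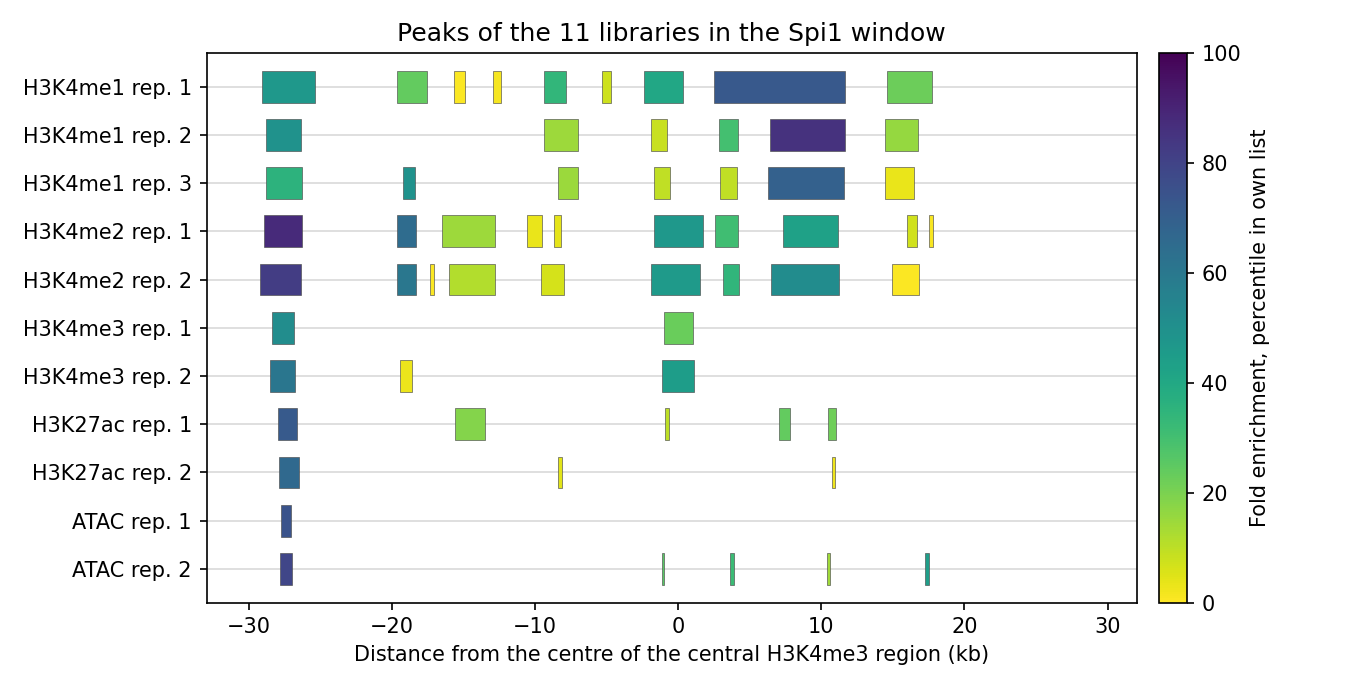
Peaks of each library across the Spi1 window, against distance in kb from the centre of the central H3K4me3 region, with low coordinates to the left. Each box is 1 peak and its colour gives the percentile of its fold enrichment in its own list. All 11 libraries have a peak in the left segment, and only ATAC replicate 2 has open sites to the right of it.

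The left segment, 90908720 to 90912565, was the only one with peaks of all 11 libraries. Its H3K4me3 consensus region ran from 90909456 to 90911183 (1.73 kb). Fold enrichment there was 7.24 in H3K4me3 replicate 1 and 8.79 in replicate 2, the 51.3 and 60.6 percentiles of their lists. H3K4me2 stood higher in its own lists, with a fold of 7.20 in replicate 1 and 5.34 in replicate 2, the 88.1 and 82.4 percentiles. The H3K4me2 peak was therefore among the strong ones of both libraries, and the H3K4me3 peak lay nearer the middle of its lists.

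H3K27ac at the left segment had a fold of 3.33 in replicate 1 and 3.00 in replicate 2, the 72.2 and 66.3 percentiles. This was the strongest H3K27ac peak of the window in each library, with a consensus region from 90910010 to 90911467. H3K4me1 was less prominent, with folds of 2.63, 2.56 and 2.43 in replicates 1 to 3 and percentiles of 46.5, 49.0 and 35.9. Every H3K4me1 library covered the whole H3K4me3 peak and reached past both its ends, by 312 to 671 bp on the low side and 425 to 1433 bp on the high side.

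The left segment was also the only place in the window that was open in both proerythroblast libraries. The ATAC peak ran from 90910218 to 90910919 with a fold of 8.78 in replicate 1 and from 90910165 to 90910977 with a fold of 9.05 in replicate 2, the 74.3 and 78.9 percentiles. The summit was called at 90910756 in replicate 1 and at 90910406 in replicate 2. All 9 histone libraries covered both summits.

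The central segment, 90935575 to 90939697, carried the H3K4me3 region that gene order would place at Spi1, and it was weaker. The region ran from 90936842 to 90939057 (2.22 kb), with its centre 27.6 kb from that of the left one. Fold enrichment was 3.76 in H3K4me3 replicate 1 and 5.47 in replicate 2, the 22.9 and 44.6 percentiles. In both libraries it was the weaker but the wider of the 2 regions, at 2032 bp in replicate 1 and 2216 bp in replicate 2, against 1565 and 1728 bp for the left one. With −log10 q of at least 5, replicate 1 lost the central peak (−log10 q 3.95) and replicate 2 kept it (11.7).

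H3K4me2 covered the central H3K4me3 region from end to end in both libraries. Over the whole lists, 99.5% of the H3K4me3 bases of both libraries lay under H3K4me2 of both. The H3K4me2 peak at the central region had a fold of 3.50 in replicate 1 and 3.06 in replicate 2, the 46.8 and 46.0 percentiles. H3K27ac was called there in replicate 1 alone, as a peak of 301 bp from 90937018 to 90937318 with a fold of 2.43 (the 9.92 percentile). It took 13.6% of the H3K4me3 region in replicate 1 and 0% in replicate 2. At the left region these shares were 67.9% and 63.0%. Thus 1 of the 2 consensus H3K4me3 regions met a consensus H3K27ac region, against 68.3% of the 13600 in the genome.

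The H3K4me1 peaks that met the central H3K4me3 region were displaced to its low side. They began 598 to 1400 bp before the H3K4me3 peak and stopped 717 to 1914 bp short of its high end, over all 6 pairs of libraries. The next H3K4me1 peaks began past that high end, at 90940417, 90940804 and 90940839 in replicates 1 to 3. H3K4me1 covered 65.3% of the consensus H3K4me3 region in replicate 1, 13.6% in replicate 2 and 23.8% in replicate 3. At the left region all 3 libraries covered 100%. The folds were low, at 2.56, 2.13 and 2.12 in replicates 1 to 3 (percentiles 40.3, 8.34 and 9.50), so replicate 1 stands apart from the others here.

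Open chromatin at the central segment was called in ATAC replicate 2 only. That peak, 90936785 to 90936984, had its summit at 90936931 and a fold of 4.59 (26.0 percentile). The summit lay within the overlap of H3K4me1 and H3K4me2 in every library of those marks, and at the low edge of H3K4me3. H3K4me3 replicate 2 covered the summit, and the replicate 1 peak began at 90936975, within the ATAC peak but past its summit. No H3K27ac peak touched the ATAC peak. Of the 2 consensus H3K4me3 regions, only the left one met an ATAC site seen in both libraries, against 78.8% in the genome.

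Libraries whose titles carry the date-like tag 3-18 (H3K4me2 replicate 1, H3K4me3 replicate 2 and H3K27ac replicate 1) had the higher fold of their pair at both H3K4me3 regions, counting the central H3K27ac peak that the other library lacks. Over the whole lists the median fold was also higher in the 3-18 library for H3K4me2 (3.67 against 3.20) and H3K27ac (2.86 against 2.75). For H3K4me3 it was lower (6.50 against 7.05). As percentiles, the central H3K4me2 peaks of the pair were almost alike (46.8 and 46.0), and the central H3K4me3 peaks were not (44.6 with the tag 3-18 and 22.9 with 3-25). The H3K27ac library with the tag 3-18 was also the one with more peaks in the window, 5 against 3, and its whole list was longer, 28387 against 23735 peaks. The part of these tags in the values was not tested.

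Between the left and the central segments lay 5 segments without any ATAC peak, from 90918315 to 90933257. This stretch is upstream of the central region in the direction in which Spi1 is read. The first, 90918315 to 90920374, was led by H3K4me2, whose consensus region from 90918315 to 90919607 had folds of 4.84 in replicate 1 and 3.71 in replicate 2 (65.0 and 60.3 percentiles). That was the second strongest H3K4me2 peak of the window in both libraries. H3K4me1 met it in replicate 1 (fold 2.39) and replicate 3 (2.57), but not in replicate 2. H3K4me3 met it in replicate 2 alone, with a fold of 2.67 at the 2.90 percentile. Neither H3K27ac library had a peak there.

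The segment from 90921434 to 90925583 held the only H3K27ac peak of more than 1 kb between the left and the central segments. H3K4me2 ran from 90921434 to 90925150 over both libraries, a wide region of 3.72 kb with low folds of 2.52 in replicate 1 and 2.37 in replicate 2 (14.7 and 11.4 percentiles). Its centre lay 14.7 kb from that of the central H3K4me3 region. H3K27ac replicate 1 had a peak of 2111 bp inside it, from 90922346 to 90924456, with a fold of 2.56 and a −log10 q of 3.15. H3K27ac replicate 2 had none. H3K4me1 was called in replicate 1 only, as peaks of 795 and 548 bp at the 0.611 and 1.25 percentiles. The first, 90922272 to 90923066, lay inside the H3K4me2 region and overlapped the H3K27ac peak of replicate 1. The second, 90925036 to 90925583, lay at the high end of the H3K4me2 region.

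The segment from 90927391 to 90930943 carried H3K4me1 in 3 of 3 and H3K4me2 in 2 of 2 libraries, again with low folds. H3K4me1 folds were 2.49, 2.23 and 2.21 in replicates 1 to 3 (percentiles 34.0, 14.7 and 15.0). The highest H3K4me2 fold was 2.21 in replicate 1 and 2.26 in replicate 2. Here H3K27ac was called in replicate 2, as 316 bp from 90929538 with a fold of 2.18, and not in replicate 1. The other 2 segments of this stretch were single peaks: H3K4me2 replicate 2 from 90920605 to 90920916, and H3K4me1 replicate 1 from 90932602 to 90933257.

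Between the left and the central segments, each H3K27ac library thus had a peak in a different segment, and neither peak was shared. No value in the lists says which of these segments is the URE. Proerythroblast libraries had no peak in any of them, which at unknown depth does not show that they were closed.

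**Figure D2:**
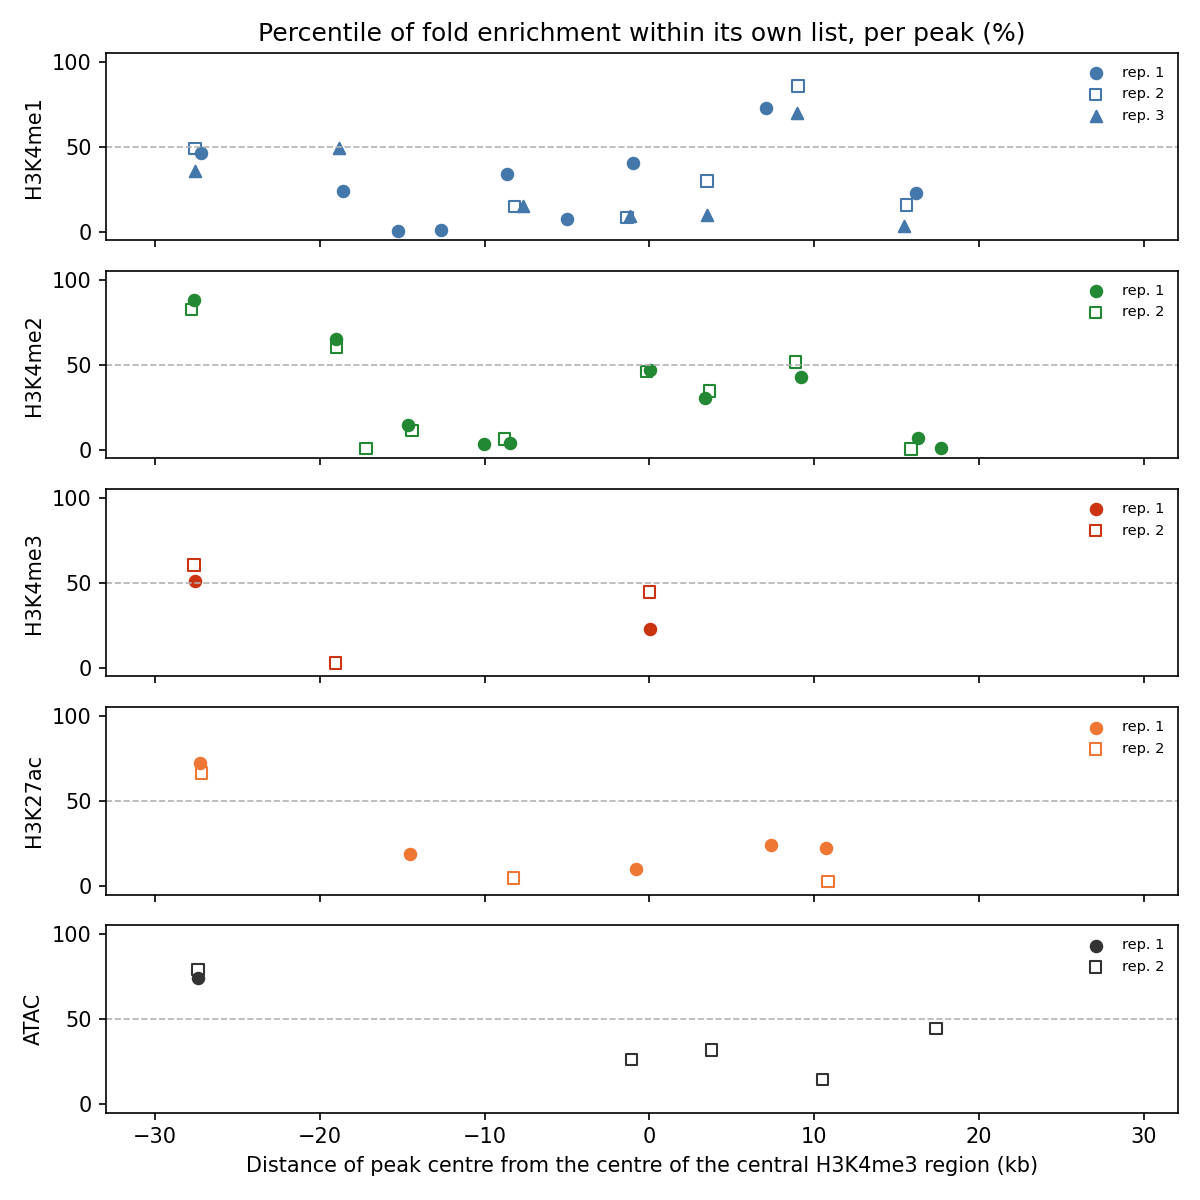
Percentile of fold enrichment in its own list for each peak in the Spi1 window, against the distance of the peak's centre in kb from the centre of the central H3K4me3 region, with 1 panel for each mark and for ATAC. Symbols stand for replicates and the dashed line is the middle of the list. H3K4me2, H3K4me3, H3K27ac and ATAC are highest at the left segment, whereas H3K4me1 is highest to the right of the central region, at percentiles of 69.5 to 85.6.

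To the right of the central segment, H3K4me1 reached its highest fold of the window in every library. The segment from 90940417 to 90949606 (9.19 kb) was 1 peak in H3K4me1 replicate 1 and 2 peaks in replicates 2 and 3. The strongest H3K4me1 peak had a fold of 3.07 in replicate 1, 3.13 in replicate 2 and 2.84 in replicate 3, the 72.6, 85.6 and 69.5 percentiles. Replicate 1 called it 9166 bp wide, and replicates 2 and 3 called 5264 and 5308 bp, the 96.0, 91.9 and 90.4 percentiles of width. It was the only H3K4me1 peak of the window with −log10 q of at least 5, in each of the 3 libraries.

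H3K4me2 lay over the same segment as 2 regions, from 90940528 to 90942181 and from 90944428 to 90949186. The larger had folds of 3.32 in replicate 1 and 3.27 in replicate 2 (43.0 and 51.6 percentiles). H3K27ac was seen there in both libraries but only as short peaks. Their consensus region ran from 90948441 to 90948954, with a fold of 2.58 in replicate 1 and 2.09 in replicate 2 (22.1 and 2.57 percentiles). The replicate 2 peak had a −log10 q of 1.09, the 0.428 percentile of its list, so this consensus rests on a barely called peak. Replicate 1 had another, 780 bp from 90944961. No H3K4me3 peak was called in either library.

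ATAC replicate 2 had peaks at both H3K4me2 regions of that segment. The first, 90941580 to 90941876, had a fold of 4.84 (31.7 percentile), and its summit lay under H3K4me1 in 3 of 3 and H3K4me2 in 2 of 2 libraries, with no H3K27ac. The second, 90948349 to 90948548, had a fold of 4.01 (14.3 percentile) and its summit lay under the same libraries and under H3K27ac replicate 1. ATAC replicate 1 had neither.

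The last segment, 90952406 to 90955744, had H3K4me1 in all 3 libraries (folds 2.37, 2.24 and 2.00) and H3K4me2 in both (2.31 in replicate 1 and 2.02 in replicate 2), but neither H3K4me3 nor H3K27ac. The highest of these percentiles was 22.5. An ATAC replicate 2 peak from 90955219 to 90955495, with a fold of 5.56 (44.3 percentile), lay at its high end. H3K4me1 replicate 1 covered it and the other 2 H3K4me1 libraries ended before it. No H3K4me2 peak met it, although H3K4me2 replicate 1 had a peak of 242 bp that began at 90955503.

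The 4 open sites right of the left segment were all of ATAC replicate 2, and they were weak ones. In the whole list 42.4% of replicate 2 peaks had no partner in replicate 1, and their median fold was 4.68, against 7.86 for the shared ones. The folds of the 4 sites ran from 4.01 to 5.56 and their widths from 200 to 297 bp, against a median of 265 bp for such unpaired peaks. All 4 met a consensus H3K4me1 region, against 64.0% of unpaired peaks in the genome. Of the 4, 3 met consensus H3K4me2 (70.4%), 1 met consensus H3K27ac (38.2%) and 1 met consensus H3K4me3 (23.3%). A site can meet a consensus region under 1 library alone. The site at 90955219 met H3K4me1 only in replicate 1, and the site at 90948349 met H3K27ac only in replicate 1. No test was made on 4 sites. When both ATAC lists were limited to the same number of peaks, 1 of the 4 was left, the one at 90955219.

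H3K4me1 and H3K4me2 peaks covered more of the locus than H3K4me3 or H3K27ac in every library. The covered length was 24.3, 14.8 and 14.4 kb in H3K4me1 replicates 1 to 3, a mean of 17.8 kb ± 5.61 (SD, n = 3). H3K4me2 covered 18.8 kb in replicate 1 and 20.6 kb in replicate 2 (19.7 kb ± 1.24, SD, n = 2). H3K4me3 covered 3.60 and 4.78 kb (4.19 kb ± 0.834, n = 2) and H3K27ac 5.05 and 1.91 kb (3.48 kb ± 2.22, n = 2). The ATAC libraries covered 0.702 and 1.79 kb (1.24 kb ± 0.767, n = 2).

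The ranges of H3K4me1 and H3K4me2 did not overlap those of H3K4me3 and H3K27ac. Nor did they over the whole span of the lists. There H3K4me1 covered 3.56% to 5.09% and H3K4me2 3.31% and 3.58%. H3K4me3 covered 1.00% and 1.30% of that span and H3K27ac 2.52% and 2.07%. The separation is thus not particular to this locus. In the two-sided exact permutation test H3K4me1 minus H3K4me3 (13.6 kb) and H3K4me1 minus H3K27ac (14.3 kb) had p = 0.2, the smallest that 3 libraries against 2 can give. H3K4me2 minus H3K4me3 (15.5 kb) and H3K4me2 minus H3K27ac (16.2 kb) had an exact permutation p = 0.33, the smallest for 2 against 2. Adjusted over the 6 pairs of marks (Benjamini-Hochberg), these exact p-values were all 0.5, and the design cannot reach 0.05. The other pairs overlapped, with exact p = 0.6 for H3K4me1 minus H3K4me2 (−1.89 kb) and p = 1 for H3K4me3 minus H3K27ac (0.709 kb). The overlap of H3K4me1 with H3K4me2 rests on H3K4me1 replicate 1. Without that library the difference was −5.13 kb with no overlap (exact permutation p = 0.33, the smallest possible there). With −log10 q of at least 5 it was −5.97 kb (exact permutation p = 0.2, also the smallest possible there). That threshold removes most peaks of each H3K4me1 list (median −log10 q 2.60 to 3.00). It keeps most peaks of each H3K4me2 list (7.65 in replicate 1 and 5.11 in replicate 2). The H3K4me3 minus H3K27ac difference turned to −0.861 kb without H3K27ac replicate 2 and to −0.271 kb between the libraries tagged 3-18, so those marks had no settled order.

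**Figure D3:**
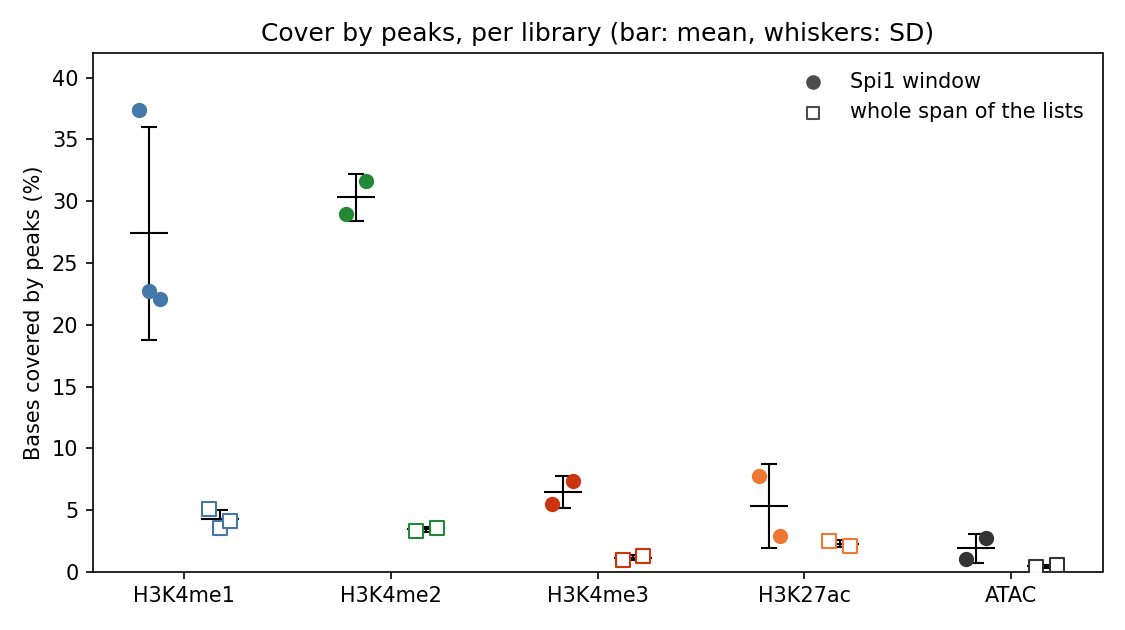
Percentage of bases covered by peaks in each library, in the Spi1 window (filled circles) and over the whole span of the peak lists (open squares), by mark and for ATAC, with mean and SD over libraries. H3K4me2 covers 29.0% and 31.7% of the window and 3.31% and 3.58% of the whole span, whereas H3K27ac covers 7.76% and 2.94% of the window and 2.52% and 2.07% of the whole span.

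As a share of length, every mark was denser in the window than over the whole span of the lists, H3K4me2 most and H3K27ac least of the histone marks. H3K4me2 covered 30.3% ± 1.91 of the window and 3.45% ± 0.195 of the span (SD, n = 2), a ratio of 8.79 ± 0.0550. The ratio was 6.37 ± 0.990 for H3K4me1 (n = 3) and 5.58 ± 0.0936 for H3K4me3 (n = 2). It was 2.25 ± 1.18 for H3K27ac (n = 2), at 3.08 in replicate 1 and 1.42 in replicate 2. ATAC had 2.86 in replicate 1 and 4.96 in replicate 2. The window was chosen around a gene, so these ratios do not compare it with other genes.

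Set beside the 9198 tiles that hold a consensus H3K4me3 region, the window was high for H3K4me2 and nearer the middle for H3K27ac. Only 6.01% and 6.85% of these tiles had at least as much H3K4me2 cover, by replicate 1 and 2. For H3K4me1 the shares were 11.2%, 16.5% and 22.2%, and for H3K4me3 25.8% and 23.2%. For H3K27ac 35.0% and 53.3% of the tiles had at least as much, and for ATAC 63.0% and 27.6%. These shares describe where the locus lies in each list and are not tests.

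Less of the methylated sequence lay under H3K27ac of both libraries than over the whole lists. Of the 16.4 kb that both H3K4me2 libraries covered in the window, 1.48 kb lay under H3K27ac in both libraries, whereas the share over the whole lists was 44.5%. Of the 12.2 kb that all 3 H3K4me1 libraries covered, 12.1% lay under H3K27ac, against 44.9%. Of the 3.60 kb of H3K4me3, 28.9% did, against 63.7%. By regions, 2 of the 8 consensus H3K4me2 regions met consensus H3K27ac (42.5% in the genome) and 2 of the 5 consensus H3K4me1 regions did (53.0%). Counting an H3K27ac peak of either library, 5 of the 8 H3K4me2 regions, 4 of the 5 H3K4me1 regions and 2 of the 2 H3K4me3 regions met one. No genome share was computed for these wider counts, and the shares given for consensus H3K27ac do not apply to them. Shares of bases give wide regions more weight than counts of regions do. None of these differences was tested.

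Most of this acetylation lay in the left segment. Without it, the bases under H3K27ac in both libraries came to 0.22 kb of 1.48 kb, which is 1.60% of the H3K4me2 bases and 2.26% of the H3K4me1 bases and does not touch the H3K4me3 bases. The 2 H3K27ac libraries shared little outside the left segment, with a Jaccard index (bases in both libraries over bases in either) of 0.0547, and bases acetylated in 1 library alone are not in these shares. With the left segment the index was 0.269, against 0.652 over the whole lists.

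**Figure D4:**
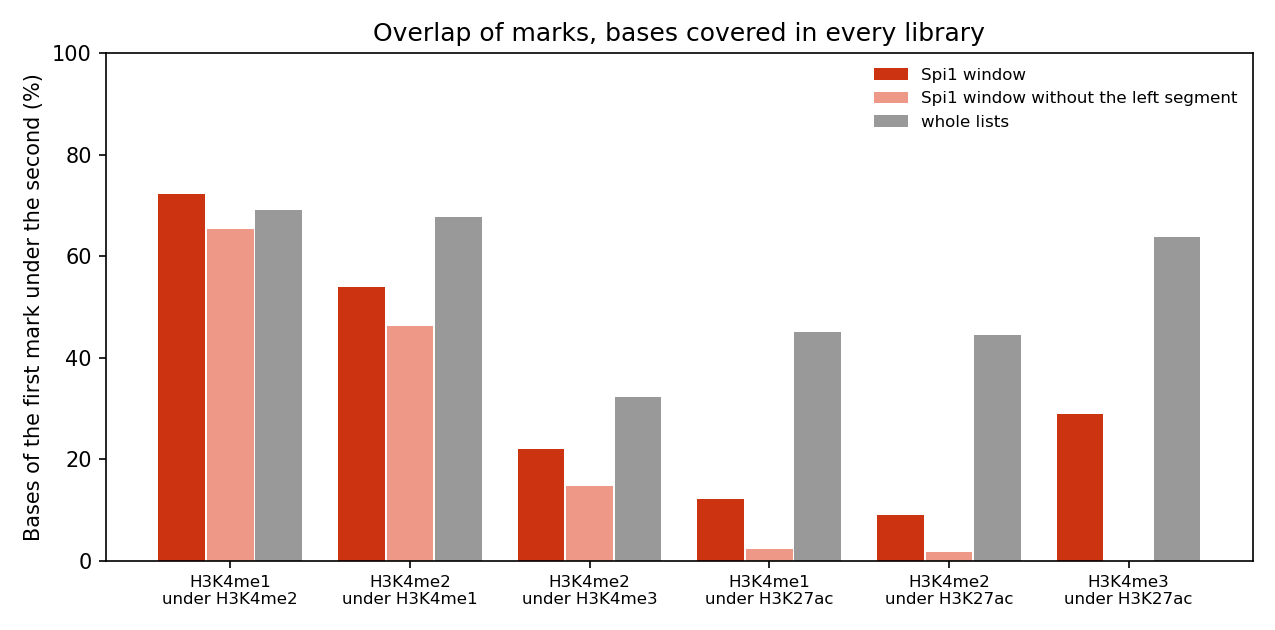
Percentage of the bases of one mark that also lie under another, with each mark read as the bases covered in every one of its libraries. Bars give the Spi1 window, the window without its left segment, and the whole lists. Overlap of H3K4me1 with H3K4me2 is close to that of the whole lists (72.3% in the window and 69.0% in the lists), whereas the shares of H3K4me1, H3K4me2 and H3K4me3 bases under H3K27ac are lower in the window. Conversely, the H3K27ac bases of the window, which are not plotted, all lie under H3K4me1 and H3K4me2. Over the whole lists these shares are 73.4% and 74.2%.

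H3K4me2 and H3K4me1 divided the locus unevenly. Of the H3K4me1 bases 72.3% lay under H3K4me2, against 69.0% over the whole lists, and of the H3K4me2 bases 53.8% lay under H3K4me1, against 67.6%. All 5 consensus H3K4me1 regions met consensus H3K4me2, whereas 2 of the 8 consensus H3K4me2 regions, those at 90918315 and 90921434, met H3K4me1 in some libraries only. Genome shares for these 2 counts of regions were not computed, so they do not show whether the locus differs from others. Consensus H3K4me3 lay on 2 of the 8 H3K4me2 regions, against 36.1% in the genome. An H3K4me3 peak of either library lay on 3 of the 8, a wider count without a computed genome share. The H3K4me3 bases shared by both libraries were under H3K4me2 throughout, against 99.5% over the whole lists, so this is not particular to the locus.

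Replicates agreed on the methylation of the locus about as well as elsewhere, apart from H3K4me1 replicate 1. The Jaccard index in the window was 0.753 for H3K4me3 and 0.713 for H3K4me2, against 0.734 and 0.781 over the whole lists. For H3K4me1 it was 0.830 between replicates 2 and 3 but 0.543 and 0.527 for those with replicate 1, against 0.661, 0.599 and 0.689 over the whole lists. Replicate 1 has the longest H3K4me1 list, and 4 of its 9 peaks in the window lay outside the consensus regions. Its whole list holds 52387 peaks beside 30213 consensus H3K4me1 regions in the genome. The share of that list outside them was not counted, so the 4 of 9 may be usual for this library. For ATAC the index was 0.393, against 0.577.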

How the data were processed

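Chromatin marks were measured by ChIP-seq in whole fetal liver and open chromatin by ATAC-seq in proerythroblasts. Trimmomatic 0.32, Bowtie 1.0.1, SAMtools and MACS2 and build mm9 are named in the submitters' processing notes; no source used here gives settings, the MACS2 version or the control. The protocol text of the ATAC samples describes ChIP, so cell isolation, transposition and any shift of cut sites are unknown. The authors deposited 1 peak list per library, broad for ChIP and narrow for ATAC. Each peak has a deposited fold enrichment (a ratio over the caller's background), a deposited −log10 p and −log10 q, and an integer score, which the authors' files set at 10 times −log10 q, rounded down, for nearly all peaks. ATAC lists also give a summit. Depth is unknown, so no interval on counts was made. Cell type markers could not be read without an annotation of the files' build.

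Mitochondrial and unplaced peaks, 7 in all, were set aside. Positions count from 1. Peaks overlapped when they shared at least 1 bp. Every peak that meets the window was kept, every consensus region in it was named, and peaks of 1 library were named where they lie on an ATAC site or outside the consensus regions. The window and these rules were chosen with earlier results of these data known. Tiles of the window's length ran over the 2568 Mb between the first and last peak of each chromosome. Covered lengths were compared by exact permutation tests over libraries, which the labels do not say came from separate embryos, so the p-values measure only the spread of these libraries. Interval code was tested on simulated data. Python 3.11.15, NumPy 2.4.6, SciPy 1.17.1 and pandas 2.3.3 were used. Alternatives were −log10 q of at least 5, at least 50% of a peak inside the window, joining peaks within 1 kb, a narrower window, each replicate left out, 1 library in place of all for a consensus, stricter overlap with ATAC sites, equal ATAC lists and a replicate block. Leaving out the left segment and matching by date-like tag were added after seeing the data.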

Additional observations from a re-analysis of the deposited data

How the results depend on the processing

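Of the recomputed values, 2 differences reversed in sign. Another 37 covers or counts moved, a cover beyond the spread of its libraries or a count by more than a set ratio. The remaining 153 did neither, although differences among them changed in size and some counts changed by less than that ratio. With so few libraries, leaving 1 out cannot move a mean cover beyond that spread. Such covers were bound to be among the 153, so this number does not measure how stable the results are. Consensus H3K4me2 regions, 8 in the main setting, were for example 6 with peaks within 1 kb joined. Both stricter rules for overlap with ATAC sites changed no value. The rule of 50% of a peak inside the window could change none, because no peak crossed an end of the window. With −log10 q of at least 5, cover was 6.58 kb for H3K4me1, 12.6 kb for H3K4me2, 2.75 kb for H3K4me3 and 1.36 kb for H3K27ac. This threshold lies above the median −log10 q of every H3K4me1 and H3K27ac list and below that of every other list. It left 1 H3K4me1, 4 H3K4me2, 1 H3K4me3 and 1 H3K27ac consensus regions. ATAC sites meeting H3K4me1, H3K4me2, H3K4me3 and H3K27ac then numbered 1, 2, 1 and 1. Joining peaks within 1 kb gave H3K4me2 21.5 kb. The window narrowed by 10 kb at each end, or without its left segment, gave H3K4me2 16.9 kb, H3K4me3 2.54 kb, H3K27ac 2.12 kb and ATAC 0.487 kb. The strict q also took H3K4me1 minus H3K4me3 to 3.82 kb, H3K4me1 minus H3K27ac to 5.22 kb, H3K4me2 minus H3K4me3 to 9.80 kb and H3K4me3 minus H3K27ac to 1.40 kb. Without the left segment 1 H3K4me3, 1 H3K27ac and 0 ATAC consensus regions were left, and 1 ATAC site each met H3K4me3 and H3K27ac. With a peak of at least 1 library there were 9 H3K4me1, 6 H3K27ac and 5 ATAC regions. With equal numbers of ATAC peaks, 2 sites were left, meeting H3K4me1 in 2, and H3K4me2, H3K4me3 and H3K27ac in 1 each. H3K4me3 minus H3K27ac turned to −0.271 kb between libraries of the same date-like tag and, without H3K27ac replicate 2, to −0.861 kb. The cause was not tested.

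With each replicate left out in turn, cover ranged from 14.6 to 19.5 kb for H3K4me1, 18.8 to 20.6 kb for H3K4me2, 3.60 to 4.78 kb for H3K4me3, 1.91 to 5.05 kb for H3K27ac and 0.702 to 1.79 kb for ATAC. The regions counted were 3 to 5 for H3K27ac and 1 to 5 for ATAC. Where a group has 2 libraries, leaving 1 out leaves a single list. Those covers and region counts are the values of each library alone and do not test a consensus. ATAC sites ranged from 1 to 5, and those meeting H3K4me1 from 1 to 5, H3K4me2 from 1 to 4, H3K4me3 from 1 to 2 and H3K27ac from 1 to 2. H3K4me1 minus H3K4me2 ranged from −5.13 to −0.165 kb and H3K4me3 minus H3K27ac from −0.861 to 2.28 kb. The replicate numbers do not follow the date-like tags, so they are not known to pair libraries. With the replicate block, H3K4me1 minus H3K4me3 was 15.3 kb and H3K4me1 minus H3K4me2 was −0.165 kb (exact sign-flip p = 0.5 and 1; 0.5 is the smallest that 2 pairs allow), and no direction changed. Unknown depth limits every absent peak.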
